A study of Mus musculus with 17 samples.

Results

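Cholesterol handling was followed through 8 genes in mouse B cells and dendritic cells exposed to an activator of the innate immune sensor STING. The 8 genes were taken by name from the 55491 gene rows of each deposited count table. The names themselves were chosen with earlier results of these data known. Hmgcs1, Idi1, Sqle and Lss encode enzymes of cholesterol synthesis, Insig1 and Srebf2 its sterol sensor and its transcription factor, Abca1 a cholesterol exporter, and Ch25h the enzyme that makes 25-hydroxycholesterol. None of the 8 encodes a receptor for lipoprotein uptake, which was examined through a wider list of genes.

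The 17 libraries came from dendritic cells of bone marrow, labelled BMDC (cells that present antigen to T cells, 8 libraries), and from spleen B cells (9 libraries). In each cell type there were cells given MSA2 together with IPI-549 (called the combination here), cells given MSA2 without IPI-549, and untreated Control cells. MSA2 is a non-nucleotide STING agonist, and IPI-549 is an inhibitor of the leukocyte lipid kinase PI3Kγ. The BMDC groups held 2, 3 and 3 libraries in that order, and the B cell groups held 3 each. Per the series description all cells came from KPC mice, a genetic model of pancreatic cancer, while the genotype label of every library reads WT. The treatment label reads Control throughout, so groups were taken from the titles. Strain, age, dose and time of incubation are not given in the sources used here, no group received IPI-549 by itself, and nothing states that replicates came from separate mice. The p-values then measure only the spread between these libraries, which may be technical.

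Cholesterol is built from acetyl-CoA through mevalonate, isoprenoids and squalene. When the endoplasmic reticulum is low in sterol, SREBP2 (the product of Srebf2) is carried by its escort Scap to the Golgi. SREBP2 is cleaved there and switches on nearly all enzymes of the route. Sterols and oxysterols such as 25-hydroxycholesterol make Insig proteins hold SREBP2 back, and oxysterols also activate the LXR receptors, which switch on Abca1. In macrophages and dendritic cells Ch25h is known as an interferon-stimulated gene, and its product limits the entry of enveloped viruses.

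The promoters of 4 of the genes are shown because the sterol-responsive and the interferon-responsive arms of this system are read from such sequence. RefSeq (build GRCm38.p6, the GRCm38 build of the files) listed a start for 7 of the 8 genes, all but Sqle. The stretches run 5′ to 3′ on the gene's strand. They end at the RefSeq start, or before it where the GENCODE M21 gene begins earlier, and capitals mark the motif matches named after the sequences. They are chr13:119690101-119690350 (plus strand) for Hmgcs1, chr5:28071162-28071362 (plus) for Insig1, chr15:82147019-82147180 (plus) for Srebf2 and chr19:34475165-34475398 (minus) for Ch25h.
Hmgcs1: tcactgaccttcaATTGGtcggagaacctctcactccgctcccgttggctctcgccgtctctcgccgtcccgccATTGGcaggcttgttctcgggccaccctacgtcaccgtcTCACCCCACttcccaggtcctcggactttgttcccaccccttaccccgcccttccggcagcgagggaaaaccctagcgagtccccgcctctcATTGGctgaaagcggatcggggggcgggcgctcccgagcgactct
Insig1: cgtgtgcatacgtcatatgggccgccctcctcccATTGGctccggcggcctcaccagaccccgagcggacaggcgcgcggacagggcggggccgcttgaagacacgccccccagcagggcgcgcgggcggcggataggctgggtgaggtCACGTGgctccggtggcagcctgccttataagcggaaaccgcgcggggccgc
Srebf2: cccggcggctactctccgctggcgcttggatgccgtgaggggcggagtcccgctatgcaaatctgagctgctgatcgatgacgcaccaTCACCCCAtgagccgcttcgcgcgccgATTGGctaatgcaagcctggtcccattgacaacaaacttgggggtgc
Ch25h: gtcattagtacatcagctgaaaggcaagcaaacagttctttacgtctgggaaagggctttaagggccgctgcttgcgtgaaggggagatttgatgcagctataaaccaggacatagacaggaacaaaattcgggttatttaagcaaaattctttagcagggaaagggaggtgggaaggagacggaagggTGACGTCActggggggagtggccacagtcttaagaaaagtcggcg

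Motifs were searched on both strands in the 250 bases before each RefSeq start, over 32851 mouse promoters of that length. The sterol regulatory element TCACNCCAC stood 137 bases before the start of Hmgcs1 and in 1.05% of all promoters. Its shorter core TCACCCCA, which overlaps it, also stood 162 bases before the start of Srebf2 and was in 1.34% of all promoters. The CCAAT box, bound by NF-Y, was present in 5 of the 7 promoters (Hmgcs1, Idi1, Lss, Insig1 and Srebf2), in each of them on the minus strand, and in 33.8% of all promoters. The E-box CACGTG was in those of Insig1 and Abca1 (6.02% of all). GGGCGG, the GC box, was in 6 of 7 and in 32.7% of all, and is not marked. The cAMP response element TGACGTCA stood 61 bases before the start of Ch25h (1.55% of all), a motif added after this promoter had been read. The interferon-stimulated response element (GAAA on each side of 2 free bases, 2.98%), the NF-kB site (GGGA, 2 free bases and TTCC, 1.21%), the AP-1 site TGACTCA (4.46%) and the LXR direct repeat (AGGTCA on each side of 4 free bases, 0.0152%) matched none of the 7 windows, which says only that these letters are not there.

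Levels are CPM (counts scaled to a common library total), scaled within each cell type by the trimmed mean of M-values (TMM). Changes are log2 fold changes with their standard error (SE) from edgeR's quasi-likelihood test, and a gene was called when its p, adjusted by Benjamini-Hochberg over all genes tested, was under 0.05. Total counts were 34760025 to 73166643 in BMDC (the highest being MSA2 replicate 2) and 41093440 to 51433008 in B cells. The default low-count filter left 14614 genes in BMDC with all 8 members and 16180 genes in B cells with 7 members, Ch25h being below it. Of 8 dendritic cell markers none was at 0 in BMDC, where they summed to 1815 to 1847 CPM with the combination, 1631 to 1755 with MSA2 and 1845 to 2098 in Control. Most of each sum was Itgax, with a mean of 1466, 1338 and 1798 CPM in the same order. MSA2 raised 3 of the 8 and lowered 1 (median 0.37), where 14.6% of all genes tested were called higher and 13.5% lower. The 10 monocyte and macrophage markers summed to 16120 to 16850 CPM in BMDC with the combination and 14180 to 17330 CPM with MSA2, both wholly below the 17430 to 19740 CPM in Control. Lyz2 made up most of each of these sums, with a mean of 12760, 12150 and 14730 CPM in the same order. With MSA2 2 of the 10 rose and 3 fell, and the part of this shift in the members' changes was not tested. The 12 B cell markers summed to 8747 to 9528 CPM in B cells with the combination, 4376 to 4907 with MSA2 and 8700 to 9252 in Control.

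The first question was what MSA2 changed in BMDC. Ch25h rose about 24-fold, Insig1 and Idi1 rose modestly, and Hmgcs1, Sqle, Lss and Abca1 fell, while Srebf2 missed the threshold. This makes 3 members called higher and 4 called lower of 8, where 28.2% of all genes tested were called, 14.6% higher and 13.5% lower. The median change of the 8 was -0.09, against -0.01 for all genes tested. In bulk libraries, fewer cells of a type and less RNA per cell cannot be told apart.

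Ch25h (ENSMUSG00000050370, chromosome 19, 34473778 to 34475164, minus strand, 1 exon) had 23.6 and 17.9 CPM in BMDC with the combination. It had 68.7, 41.1 and 44.8 CPM with MSA2, and 1.59, 1.82 and 3.08 CPM in Control. The 3 groups did not overlap, with MSA2 highest and Control lowest. MSA2 raised it by 4.58 ± 0.26 on the log2 scale against Control, 24.0-fold (adjusted p 3.05e-07), and the combination by 3.27 ± 0.28, 9.68-fold (adjusted p 1.37e-05). The counts behind these levels were 935 and 619 with the combination, 2611, 2941 and 1799 with MSA2, and 56, 81 and 107 in Control. A long non-coding gene, Gm26902, overlaps Ch25h on the opposite strand, and the strand of the libraries is not given in the sources used here. Gm26902 had 31 to 125 counts in BMDC and itself rose by 0.77 with MSA2 (adjusted p 0.0145).

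Set against MSA2, Ch25h differed by -1.31 ± 0.24 with the combination and did not pass the test (adjusted p 0.127), although the groups did not overlap. No gene of 14614 was called between the combination and MSA2 in BMDC (0% of genes tested), although 1594 had an unadjusted p under 0.05. DESeq2 called 162 genes there and limma-voom 3. The unadjusted p of Ch25h was 0.000188. DESeq2 gave it an adjusted p of 0.0377, and edgeR without MSA2 replicate 2 gave -1.45 and 0.0328. Over all its settings the adjusted p of this difference ran between 4.22e-34 (no filter on low counts) and 0.998.

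**Figure D1:**
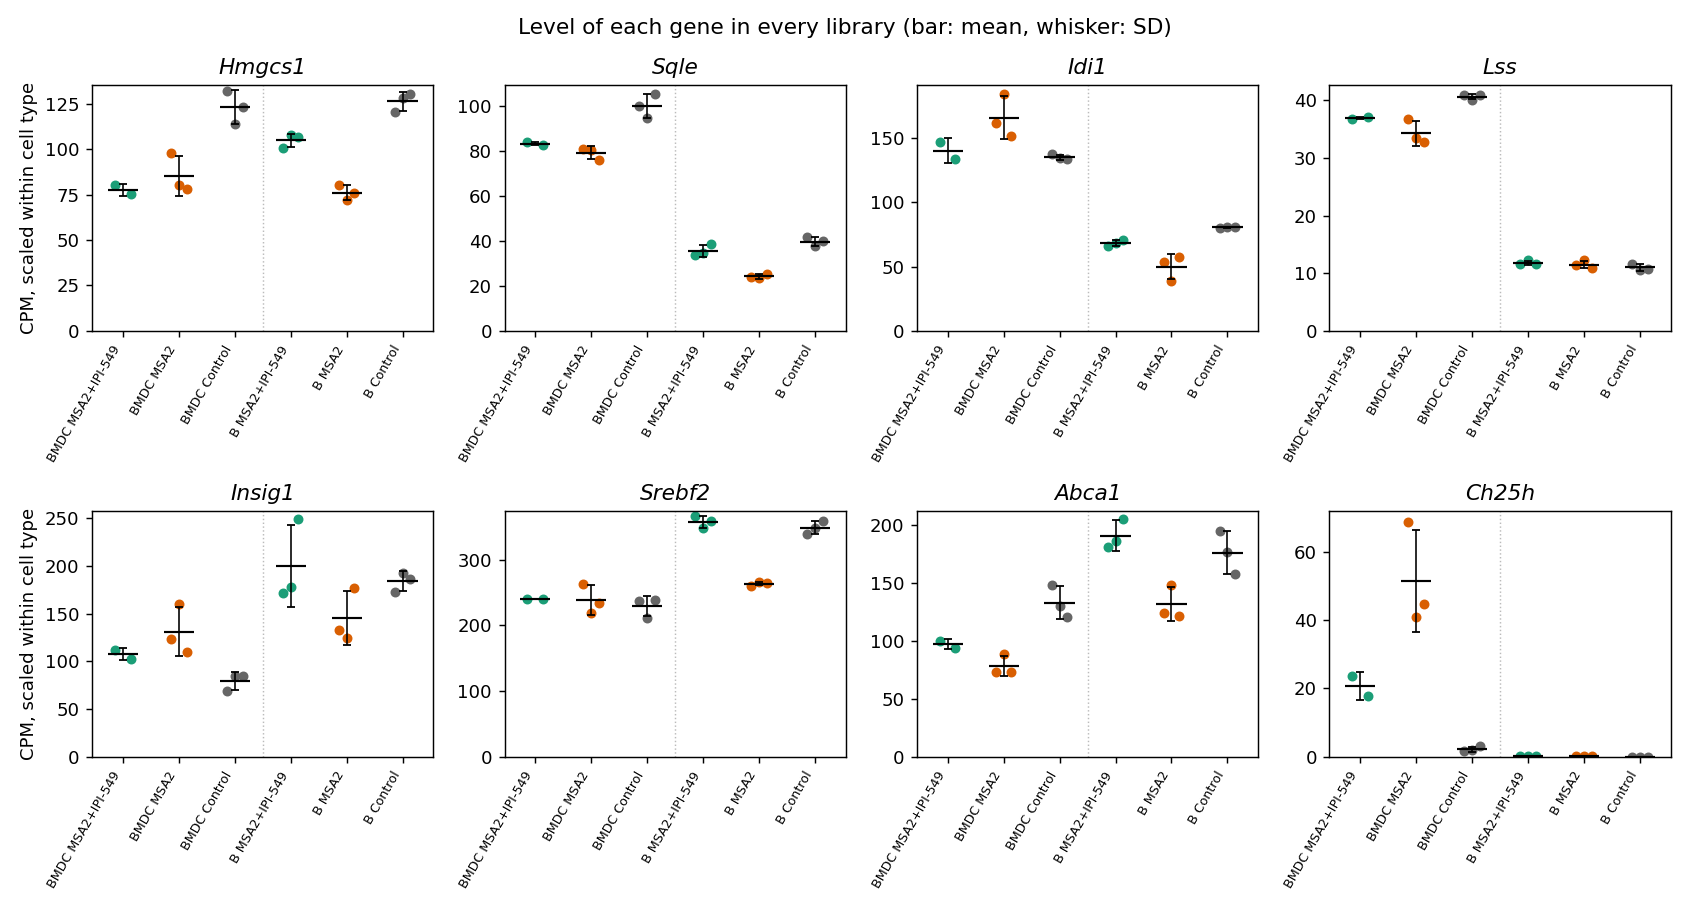
Level of each of the 8 genes in every library, in CPM on the vertical axis (each panel has its own scale from 0), by cell type and treatment. Points are libraries, bars means and whiskers SD. Ch25h stands at 41.1 to 68.7 CPM in BMDC with MSA2 and at 1.59 to 3.08 CPM in BMDC Control, and near 0 in every B cell library.

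The enzymes of synthesis moved in both directions in BMDC. Hmgcs1, which makes HMG-CoA, had 80.1 and 75.4 CPM with the combination, 97.8, 80.2 and 77.8 CPM with MSA2 and 132, 114 and 123 CPM in Control. Both treated groups lay wholly below Control. The fall was -0.53 ± 0.09 with MSA2 (adjusted p 0.00117) and -0.66 ± 0.10 with the combination (adjusted p 0.00132). Sqle, the squalene epoxidase and a slow step of the route, had 83.8 and 82.8 CPM with the combination, 81.1, 80.7 and 76.0 CPM with MSA2 and 100.2, 94.9 and 105 CPM in Control. It fell by 0.34 ± 0.06 with MSA2 (adjusted p 0.00143) and by 0.27 ± 0.07 with the combination (adjusted p 0.023). The second call was lost in edgeR on leaving out Control replicate 1 (adjusted p 0.0728) or 3 (0.0704) or combination replicate 1 (0.131) or 2 (0.162), while the value stayed between -0.27 and -0.23 in those fits.

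Idi1, the isomerase that makes dimethylallyl diphosphate, went the other way with MSA2. It had 147 and 133 CPM with the combination, 162, 184 and 151 CPM with MSA2 and 137, 134 and 134 CPM in Control. All 3 MSA2 libraries were above all 3 Control libraries, and it rose by 0.30 ± 0.075 (adjusted p 0.0125). With the combination the difference from Control was 0.05 ± 0.08 (adjusted p 0.748), and the groups overlapped. Lss, which closes squalene epoxide into lanosterol, had 36.9 and 37.1 CPM with the combination, 36.8, 33.4 and 32.8 CPM with MSA2 and 40.9, 40.1 and 41.0 CPM in Control. It fell by 0.245 ± 0.065 with MSA2 (adjusted p 0.0153), a call lost without Control replicate 1 (0.0511) or MSA2 replicate 3 (0.0589). With the combination it differed from Control by -0.14 ± 0.07 (adjusted p 0.265).

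Among the regulators, Insig1 changed in BMDC and Srebf2 gave no call. Insig1, an anchor that keeps the SREBP escort in the endoplasmic reticulum and that SREBP2 itself switches on, had 112 and 103 CPM with the combination, 124, 159.7 and 109.6 CPM with MSA2 and 68.5, 84.9 and 84.7 CPM in Control. Every treated library was above every Control library. It rose by 0.72 ± 0.13 with MSA2 (adjusted p 0.00149). The combination differed from Control by 0.435 ± 0.14 (adjusted p 0.0707), and passed the threshold without MSA2 replicate 2 (0.0131) or 3 (0.0495). Srebf2 had 241 and 241 CPM with the combination, 263, 219 and 234 CPM with MSA2 and 238, 212 and 238 CPM in Control. The MSA2 libraries overlapped both other groups, while both combination libraries lay slightly above every Control library. The difference of Srebf2 from Control was 0.06 ± 0.08 with MSA2 (adjusted p 0.629) and 0.07 ± 0.09 with the combination (adjusted p 0.664). With upper quartile scaling the MSA2 value was -0.01.

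Abca1, the exporter of cholesterol to apolipoprotein A-I, fell in BMDC under both treatments. It had 100.04 and 93.9 CPM with the combination, 73.3, 88.4 and 73.0 CPM with MSA2 and 149, 130.4 and 120.2 CPM in Control, with no overlap between the 3 groups. The fall was -0.77 ± 0.09 with MSA2 (adjusted p 0.000113) and -0.46 ± 0.105 with the combination (adjusted p 0.0148). The second call was lost without Control replicate 1 (-0.37, adjusted p 0.0532), combination replicate 1 (-0.50, 0.0786) or combination replicate 2 (-0.41, 0.143). In all, 1 member was called higher and 3 lower with the combination, where 12.9% of all genes were called against Control, 7.51% higher and 5.38% lower. Both treated groups were set against the same Control libraries.

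**Figure D2:**
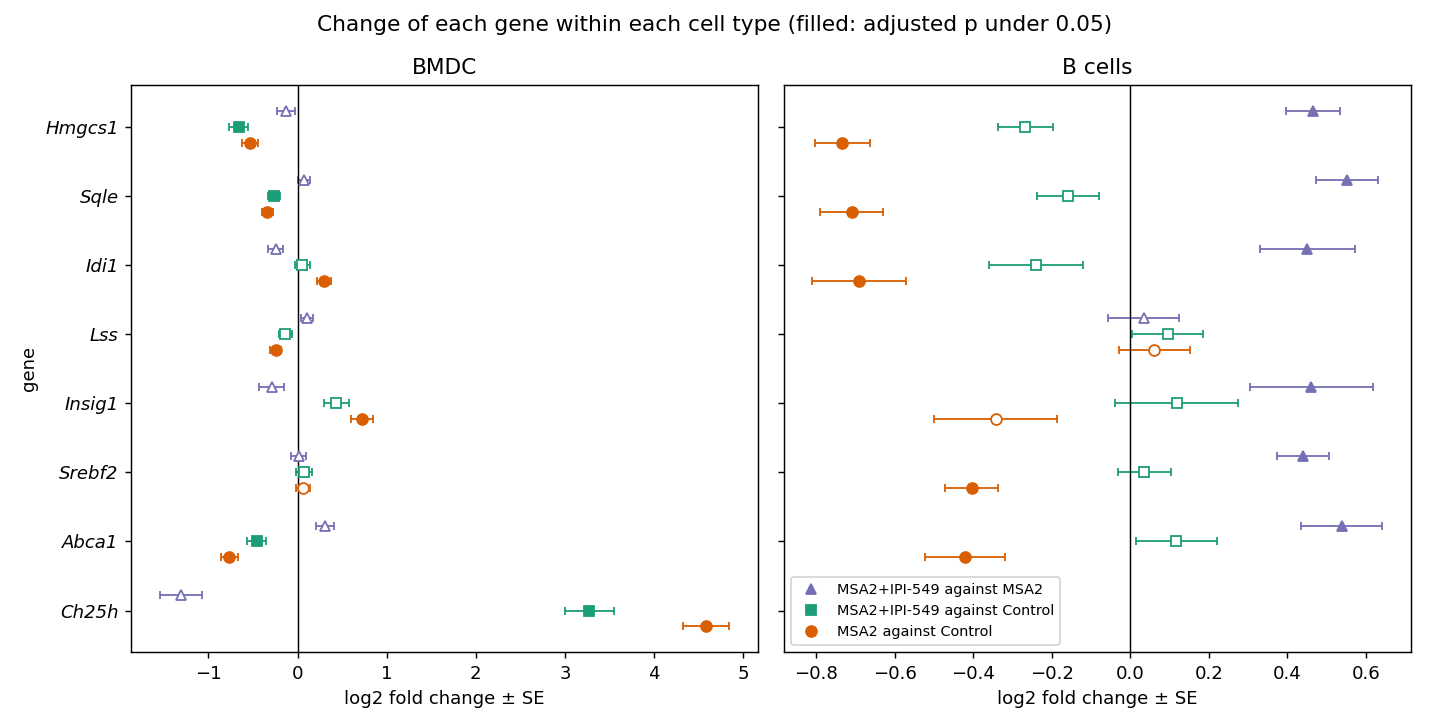
Log2 fold change of each gene with its SE on the horizontal axis, in BMDC and in B cells, for MSA2 against Control, the combination against Control and the combination against MSA2. Filled points passed an adjusted p of 0.05. In BMDC Ch25h is off to the right at 4.58 with MSA2, and the other 7 genes lie between -0.77 and 0.72.

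The wider synthesis route in BMDC was split in the same way. Of 19 genes on the list of cholesterol synthesis, all tested, MSA2 raised 4 and lowered 6. The share called among all genes was 28.2%, 14.6% higher and 13.5% lower. The median change of the 19 was -0.06, against -0.01 for all genes. Those that rose were Fdft1 (squalene synthase, 0.93 ± 0.08), Pmvk (phosphomevalonate kinase, 0.595 ± 0.11), Hsd17b7 (0.51 ± 0.10) and Idi1. Fdft1 had 61.1 and 58.4 CPM with the combination, 83.9, 69.5 and 70.1 CPM with MSA2 and 38.6, 38.1 and 41.0 CPM in Control, with no overlap between groups. Those that fell were Acat2 (-0.49 ± 0.10), Dhcr7 (-0.34 ± 0.07), Mvd (-0.21 ± 0.07), Hmgcs1, Sqle and Lss. Fdft1 and Sqle, neighbouring steps that make and oxidise squalene, thus moved in opposite directions. With the combination 2 of 19 rose (Pmvk and Fdft1) and 6 fell (Acat2, Msmo1, Sc5d, Dhcr7, Hmgcs1 and Sqle). The share called among all genes was then 12.9%, 7.51% higher and 5.38% lower.

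Genes of uptake and sterol sensing also moved both ways in BMDC. Of 15 tested, MSA2 raised 3 and lowered 5. This count and those of the lists that follow are to be read against the 28.2% of all genes called in the same comparison, 14.6% higher and 13.5% lower. Lrp8, a lipoprotein receptor that binds apolipoprotein E, had 17.4 and 16.3 CPM with the combination, 18.3, 17.7 and 19.3 CPM with MSA2 and 11.7, 15.2 and 15.3 CPM in Control, and rose by 0.39 ± 0.10 with MSA2 (adjusted p 0.0154). Insig2, the second Insig protein, rose by 0.465 ± 0.07. Lrp1, an endocytic receptor for lipoprotein remnants, fell by 0.74 ± 0.08. Of 10 genes of efflux and of the LXR pathway 1 rose and 5 fell with MSA2. Abcg1, which exports cholesterol to HDL and like Abca1 is an LXR target, fell by 0.94 ± 0.08 (adjusted p 8.09e-06), and its levels were 217.3 ± 6.1 CPM with the combination (n = 2), 162 ± 11 CPM with MSA2 and 311 ± 33 CPM in Control (SD, n = 3 each). Of 10 genes of fatty acid synthesis driven by SREBP1, none rose and 4 fell. Of 6 genes of cholesterol esters and storage 1 rose, the lipid droplet gene Plin2 (0.59 ± 0.07), and 3 fell.

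**Figure D3:**
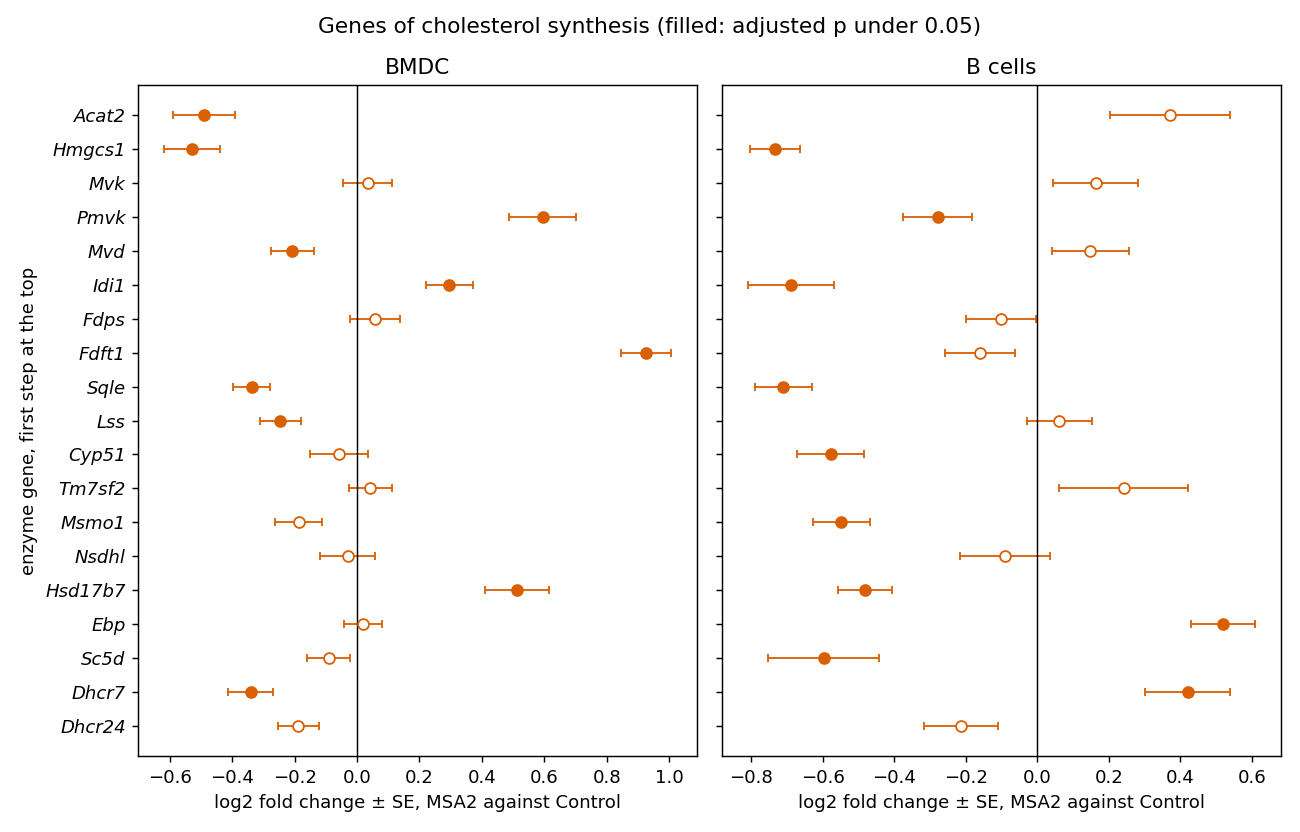
Log2 fold change of 19 genes of cholesterol synthesis for MSA2 against Control, with SE, in BMDC and in B cells. Filled points passed an adjusted p of 0.05. In BMDC 4 genes rose and 6 fell, led by Fdft1 at 0.93, while in B cells 2 rose and 8 fell. Among all genes tested 14.6% were called higher and 13.5% lower in BMDC, and 24.9% higher and 18.5% lower in B cells.

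The genes next to Ch25h in oxysterol metabolism did not rise with it in BMDC. Of 7 oxysterol genes tested, Ch25h rose and 2 fell with MSA2, Gpr183 and Hsd3b7. Gpr183 (EBI2), the receptor that guides immune cells along 7α,25-dihydroxycholesterol, had 12.3 and 12.3 CPM with the combination, 18.3, 15.8 and 12.5 CPM with MSA2 and 34.8, 28.5 and 34.7 CPM in Control. Both treated groups lay wholly below Control, with falls of -1.07 ± 0.13 with MSA2 (adjusted p 8.91e-05) and -1.41 ± 0.15 with the combination (adjusted p 8.56e-05). Hsd3b7, which degrades that ligand, had 48.7 and 45.05 CPM with the combination, 41.3, 44.9 and 40.7 CPM with MSA2 and 56.3, 52.7 and 48.2 CPM in Control. It fell by 0.31 ± 0.075 with MSA2 (adjusted p 0.0099), and the combination gave -0.16 ± 0.08 (adjusted p 0.262). Cyp7b1, which makes the ligand from 25-hydroxycholesterol, was at or near 0 in every BMDC library, at most 0.0288 CPM.

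**Figure D4:**
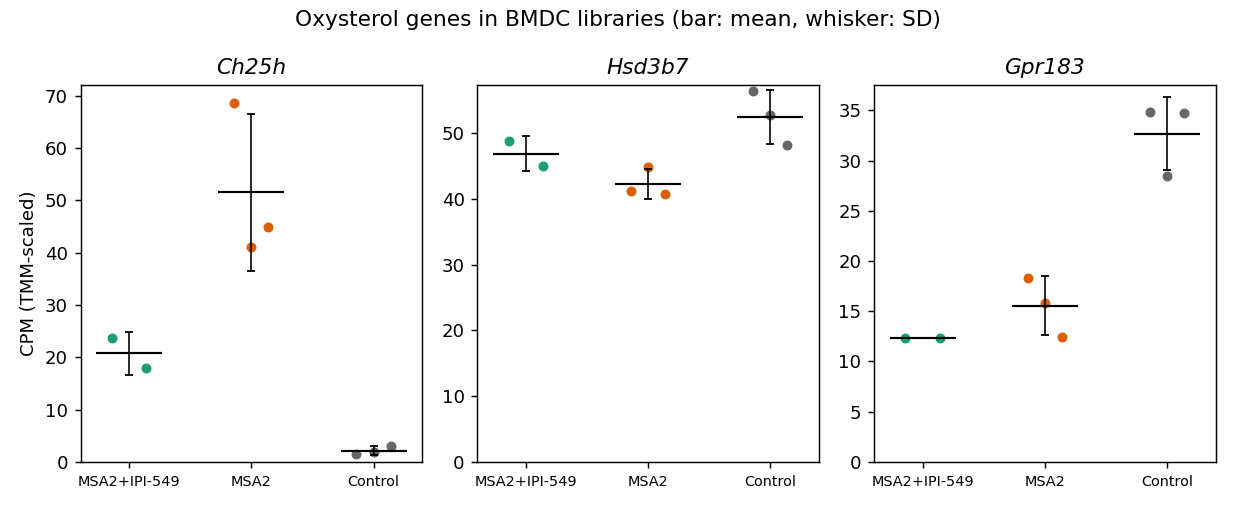
Ch25h, Hsd3b7 and Gpr183 in BMDC libraries, in CPM on axes from 0. Points are libraries, bars means and whiskers SD. Ch25h is highest with MSA2, where Gpr183 stands at 12.5 to 18.3 CPM against 28.5 to 34.8 CPM in Control.

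The second question was what MSA2 changed in B cells. In CPM, 5 of the 7 members tested fell and none rose (Hmgcs1, Sqle, Idi1, Srebf2 and Abca1), where 43.4% of all genes were called, 18.5% lower and 24.9% higher. Their median change was -0.42, against -0.005 for all genes tested. The B cell MSA2 libraries stood apart in their cell markers, which bears on each value here. All 12 B cell markers fell with MSA2 (median -0.97), and their sum is given with the library totals. In the same libraries 11 of 12 T cell markers rose and 1 fell, and all of the 8 NK cell, 10 monocyte and macrophage, 10 neutrophil and 7 red cell precursor markers rose. Of 8 dendritic cell markers 5 rose, and their sums were 1000 to 1254 CPM with MSA2 and 1173 to 1427 CPM in Control. Most of each sum was Ccr7, with a mean of 1025 CPM with MSA2 and 1262 CPM in Control.

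The monocyte and macrophage markers summed to 46.3 to 48.7 CPM in B cells with the combination, 1349 to 1499 CPM with MSA2 and 44.4 to 62.9 CPM in Control. The neutrophil markers summed to 0.352 to 0.866 CPM with the combination, 1539 to 1618 CPM with MSA2 and 2.09 to 33.3 CPM in Control. Up to 6 of the 10 neutrophil markers were at 0 in a combination library and none with MSA2. T cell markers summed to 335 to 362, 1312 to 1652 and 407 to 422 CPM with the combination, with MSA2 and in Control. NK cell markers summed to 6.56 to 10.6, 342 to 417 and 14.2 to 19.6 CPM in the same order, and red cell precursor markers to 15.7 to 19.4, 812 to 959 and 18.0 to 38.1 CPM. The part of these cells in the members' changes was not tested. By library number the MSA2 libraries (8, 11 and 12) come after those of the combination (2, 5 and 6) and of Control (1, 3 and 4), and what these numbers stand for is not stated, so whatever they mark and the treatment cannot be told apart.

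Hmgcs1 had 101, 108 and 106 CPM in B cells with the combination, 80.2, 71.9 and 75.6 CPM with MSA2 and 120.4, 128 and 130.1 CPM in Control. The 3 groups did not overlap. It fell by 0.73 ± 0.07 with MSA2 (adjusted p 6.73e-06). Sqle had 33.7, 34.6 and 38.5 CPM with the combination, 23.9, 23.5 and 25.5 CPM with MSA2 and 41.8, 37.6 and 39.8 CPM in Control, and fell by 0.71 ± 0.08 (adjusted p 2.77e-05). Idi1 had 65.7, 68.0 and 70.8 CPM with the combination, 53.4, 38.7 and 57.5 CPM with MSA2 and 80.1, 80.8 and 80.5 CPM in Control, and fell by 0.69 ± 0.12 (adjusted p 0.000742). For both genes every MSA2 library was below every other library. Lss was at 11.6, 12.3 and 11.5 CPM with the combination, 11.4, 12.2 and 10.9 CPM with MSA2 and 11.7, 10.6 and 10.8 CPM in Control. Its difference with MSA2 was 0.06 ± 0.09 (adjusted p 0.625).

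Srebf2 had 366, 348 and 359.6 CPM in B cells with the combination, 261, 266 and 264 CPM with MSA2 and 339, 348 and 360.0 CPM in Control. All MSA2 libraries were below the rest, and it fell by 0.40 ± 0.07 (adjusted p 0.00051). Abca1 had 181, 186 and 206 CPM with the combination, 124, 149 and 122 CPM with MSA2 and 194, 176 and 157 CPM in Control, and fell by 0.42 ± 0.10 (adjusted p 0.00656). Insig1 had 172, 178 and 249 CPM with the combination, 133, 125 and 177 CPM with MSA2 and 172, 193 and 187 CPM in Control. Its groups overlapped, and its difference with MSA2 was -0.34 ± 0.16 (adjusted p 0.0995). Without MSA2 replicate 3 it was -0.51 (adjusted p 0.017), and without combination replicate 3 the adjusted p was 0.0387.

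Set against the B cell markers instead of all counts, these directions turn round. Per 1000 CPM of summed B cell markers, a scale chosen after the data had been seen, Hmgcs1 stood at 11.6 ± 0.64 with the combination, 16.3 ± 0.79 with MSA2 and 14.1 ± 0.65 in Control (SD, n = 3 each). Srebf2 stood at 39.5 ± 1.6 with the combination, 56.7 ± 3.7 with MSA2 and 38.9 ± 1.1 in Control. On that scale all 6 members with a negative MSA2 value in CPM were higher with MSA2 than in Control, by 0.21 (Hmgcs1) to 0.58 (Insig1) in log2. The markers fell by more (median -0.97) than any member (-0.73 for Hmgcs1), so this turn follows from the division itself. The scale assumes that the markers' RNA per B cell did not change and that the members' counts came from B cells. Neither was tested. The falls above are therefore falls relative to all counts of the library.

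**Figure D5:**
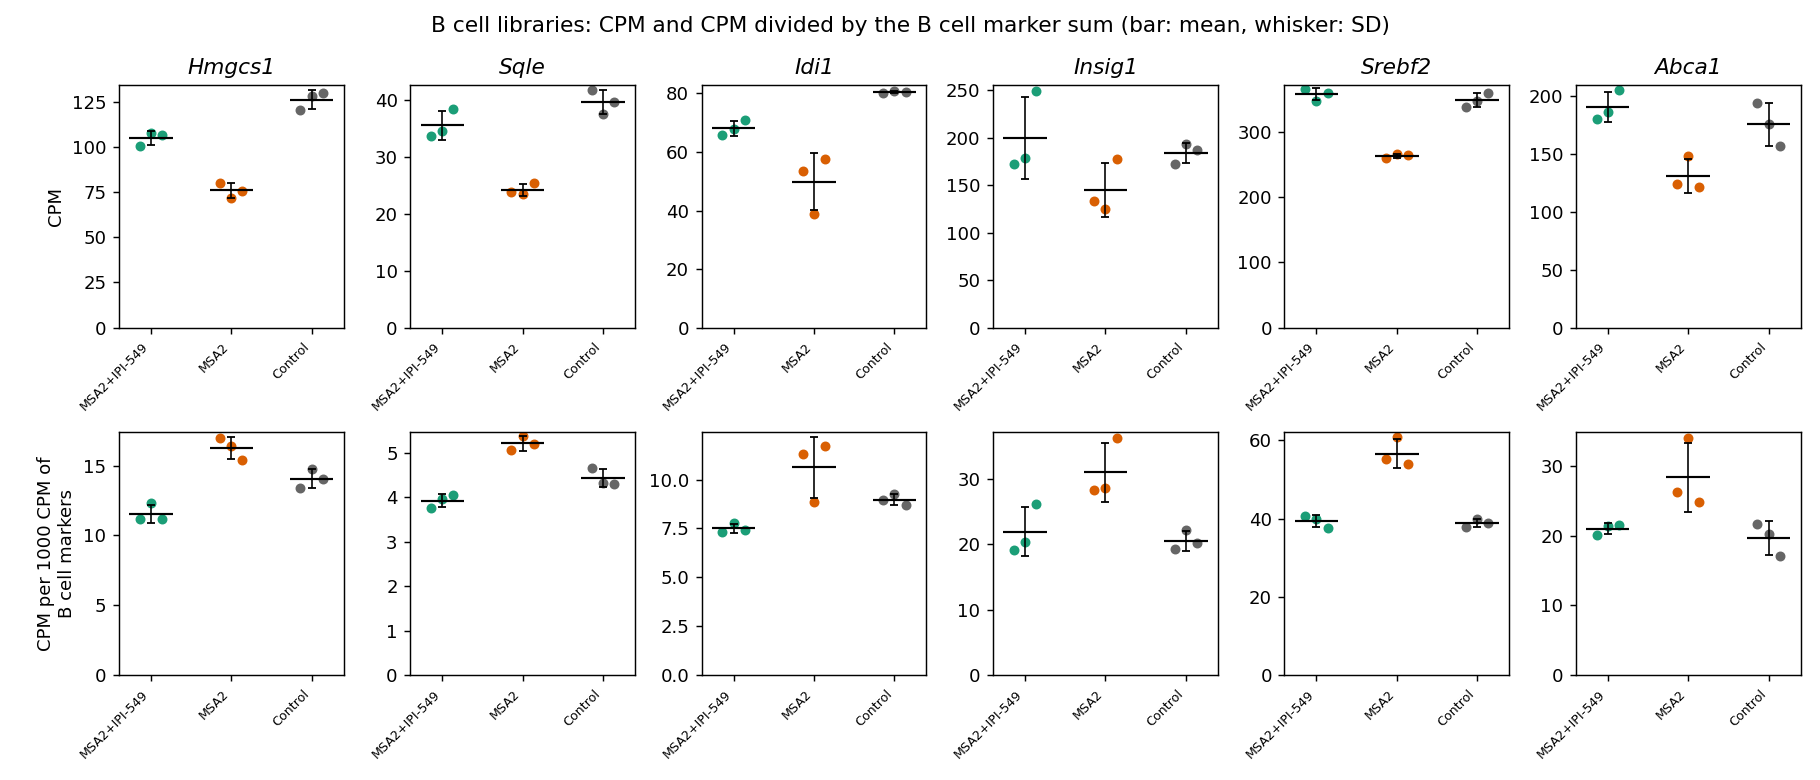
Members in B cell libraries in CPM and per 1000 CPM of 12 summed B cell markers, with libraries as points, bars as means and whiskers as SD. Hmgcs1 is lowest with MSA2 in CPM, and highest with MSA2 per B cell marker, where it stands at 16.3 against 14.1 in Control.

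With the combination, B cells were close to Control in these genes. No member of 7 passed the test against Control, where 1.06% of all genes tested did, 0.686% higher and 0.371% lower, and at an unadjusted p under 0.05 there were 1563 of 16180 genes. The largest difference was that of Hmgcs1, -0.27 ± 0.07 (adjusted p 0.134), whose 3 combination libraries were all below Control. Idi1 differed by -0.24 ± 0.12 (adjusted p 0.561), again with all 3 combination libraries below Control. Sqle differed by -0.16 ± 0.08 (adjusted p 0.564), and its groups overlapped. The B cell marker sums of these groups overlapped, and 0 of 12 of the markers were called between them in edgeR.

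Compared with MSA2, 6 of 7 members were called higher with the combination in B cells, where 37% of all genes were called, 14.1% higher and 22.9% lower. The values were 0.55 ± 0.08 for Sqle (adjusted p 0.00021), 0.54 ± 0.10 for Abca1 (adjusted p 0.00156), 0.47 ± 0.07 for Hmgcs1 (adjusted p 0.000255), 0.46 ± 0.16 for Insig1 (adjusted p 0.0388), 0.45 ± 0.12 for Idi1 (adjusted p 0.012) and 0.44 ± 0.07 for Srebf2 (adjusted p 0.000296). Lss differed by 0.03 ± 0.09 (adjusted p 0.796). All 12 B cell markers were also higher with the combination than with MSA2 (median 0.93). Per summed B cell marker all 7 members were lower with the combination, by -0.93 (Lss) to -0.41 (Sqle). Since the markers rose by more than any member, these lower values follow from the division itself. The call of Insig1 was lost without combination replicate 3 (0.275, adjusted p 0.141), MSA2 replicate 1 (0.41, 0.114) or 2 (0.38, 0.111), and Control replicate 2 (0.0534) or 3 (0.0525).

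In the wider synthesis list of B cells, 8 of 19 genes fell and 2 rose with MSA2, with a median of -0.16. Among all genes tested 43.4% were called in that comparison, 18.5% lower and 24.9% higher. Beside the members, the list genes that fell were Sc5d (-0.60 ± 0.155), Cyp51 (-0.58 ± 0.09), Msmo1 (-0.55 ± 0.08), Hsd17b7 (-0.48 ± 0.08) and Pmvk (-0.28 ± 0.10). Ebp, the sterol isomerase, rose by 0.52 ± 0.09, and Dhcr7, the last reductase of the Kandutsch-Russell branch, by 0.42 ± 0.12. Against MSA2, 6 of the 19 were higher with the combination and 1, Ebp, was lower, and none was called between the combination and Control. Among all genes tested 14.1% were called higher and 22.9% lower against MSA2, and 1.06% were called against Control. Of 10 efflux and LXR genes 4 rose and 3 fell with MSA2. The largest rises on these lists were of Lrp1 (6.03 ± 0.43), Nr1h3 (LXRα, 5.11 ± 0.19) and Rxra (3.83 ± 0.15), in libraries where 10 of 10 monocyte and macrophage markers also rose. The part of other cells in these rises was not tested.

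Ch25h was almost absent from B cells. Its counts were 7, 9 and 4 with the combination, 7, 13 and 9 with MSA2 and 0, 1 and 1 in Control, below the filter on low counts, so it had no test. Summed over libraries, 29 counts with MSA2 against 2 in Control gave a ratio of 16.0 per count sequenced (95% counting interval 4.04 to 138), and 20 with the combination against 2 gave 10.2 (2.48 to 90.2). The intervals cover counting error alone. The MSA2 level, at most 0.284 CPM, stood in libraries with 1349 to 1499 CPM of monocyte and macrophage markers, but the combination libraries had 46.3 to 48.7 CPM of them. The part of other cells in these counts was not tested.

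The last question was whether the cell types responded differently. In 1 fit of all 17 libraries (17740 genes), the effect of MSA2 in BMDC minus that in B cells was called for 5 of 8 members, 4 higher and 1 lower, where 37% of all genes were called, 16.3% higher and 20.7% lower. It was 1.07 ± 0.23 for Insig1 (adjusted p 0.00119), 0.99 ± 0.15 for Idi1 (adjusted p 4.88e-05), 0.47 ± 0.11 for Srebf2 (adjusted p 0.00208), 0.38 ± 0.10 for Sqle (adjusted p 0.00676) and -0.30 ± 0.10 for Lss (adjusted p 0.0308). The call of Lss was lost with no filter on low counts (adjusted p 0.184) and in 7 of 17 fits that each left out a library (up to 0.0788). Hmgcs1, which fell in both cell types, gave 0.21 ± 0.12 (adjusted p 0.178). The B cell MSA2 libraries with their shifted cell markers enter each of these differences, and the part of that shift was not tested. Ch25h had no usable value here, since its SE was 2.21.

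For the combination against Control, the difference between cell types was called for 1 of 8 members, Abca1 at -0.61 ± 0.16 (adjusted p 0.0462), where 3.04% of all genes were called, 2.14% higher and 0.902% lower. That call was lost in 11 of 17 fits that each left out a library, with an adjusted p of up to 0.249. For the combination against MSA2 the difference was called for 5 of 8, all negative (BMDC minus B cells), where 24.1% of all genes were called, 15.3% higher and 8.83% lower. The values were -0.79 ± 0.24 for Insig1 (adjusted p 0.0242), -0.73 ± 0.16 for Idi1 (adjusted p 0.00252), -0.64 ± 0.13 for Hmgcs1 (adjusted p 0.000936), -0.52 ± 0.11 for Sqle (adjusted p 0.00145) and -0.47 ± 0.115 for Srebf2 (adjusted p 0.0054). Within BMDC none of the 8 was called, and these 5 genes differed by -0.29 (Insig1), -0.24 (Idi1), -0.13 (Hmgcs1), 0.07 (Sqle) and 0.01 (Srebf2). All 5 were called higher in B cells, against MSA2 libraries with shifted cell markers. The part of that shift was not tested. The Insig1 call was lost in 6 of 17 fits that each left out a library.

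The untreated cell types themselves differed in 7 of 8 members, 4 higher and 3 lower in BMDC, where 79.9% of all genes were called, 39.3% higher and 40.6% lower. Ch25h, among the 4, had a value of 7.07 ± 0.60. It rests on 0, 1 and 1 counts in B cell Control, where Ch25h was below the low-count filter, so its size is uncertain. BMDC Control exceeded B cell Control by 1.99 ± 0.075 for Lss, 1.44 ± 0.07 for Sqle and 0.85 ± 0.11 for Idi1. It was lower by -1.11 ± 0.16 for Insig1, -0.50 ± 0.08 for Srebf2 and -0.30 ± 0.105 for Abca1, the last of which was not called without B cell Control replicate 1 (adjusted p 0.0879) or BMDC Control replicate 3 (0.0813), nor with a replicate block (-0.23, 0.148). Hmgcs1 differed by 0.07 ± 0.08 (adjusted p 0.469), and with the block was called (0.22, 0.0439). Cell type and library series cannot be told apart.

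Ordered by mean CPM of that joint fit, Sqle and Idi1 were higher in each BMDC group than in each B cell group, and so were Lss and Ch25h. Neighbours in the order that overlapped were the combination and Control in B cells for Sqle, and the same pair in BMDC for Idi1. The 3 B cell groups of Lss overlapped in turn, as did the treated BMDC groups, and for Ch25h the treated B cell groups overlapped. For Hmgcs1 the Control groups of the cell types were highest and overlapped, B cells with MSA2 were lowest without overlap, and the other treated groups overlapped in turn. For Insig1 only the step down to BMDC Control, the lowest group, was free of overlap. For Srebf2 the B cell combination and Control groups were highest and overlapped, and the remaining 4 groups overlapped in turn. For Abca1 the 2 treated BMDC groups were lowest, each clear of its neighbours.

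Levels were also taken per kilobase of exon, with all annotated exons of a gene merged, which sets genes side by side only roughly. The length of the transcripts in these cells was not measured. On that scale the mean levels in BMDC with MSA2 were 49.1 CPM for Idi1, 44.0 for Insig1, 38.6 for Ch25h, 34.5 for Srebf2, 19.3 for Hmgcs1, 14.8 for Sqle, 7.84 for Abca1 and 3.31 for Lss. In BMDC Control Ch25h had 1.62 CPM per kilobase, the lowest of the 8. Ch25h thus reached the range of the synthesis genes with MSA2. In B cell Control Insig1 (57.4 CPM per kilobase) and Srebf2 (46.9) stood highest and Lss (0.986) and Ch25h (0.0103) lowest.

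Across libraries, after each cell type's mean was removed, Hmgcs1 and Sqle varied together in both cell types, with a Pearson r of 0.95 over 9 B cell libraries and 0.90 over 8 BMDC libraries. Hmgcs1 and Idi1 had an r of 0.93 in B cells and -0.45 in BMDC. These values describe the treatment groups as much as the genes, since libraries of a group share treatment, and they carry no test. By the same measure over 17 libraries and 8763 genes, the genes most like Hmgcs1 were Cdk9, Pgpep1 and Dnajb5 (r 0.949 to 0.941), and most like Srebf2 were Ubqln1, Parp1 and Cyb561a3 (r 0.973 to 0.97). Over the 8 BMDC libraries those most like Ch25h among 9944 genes were Lif, Stim2 and Ube2w (r 0.9996 to 0.9967).

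The remaining members lie in GRCm38 as follows, all protein-coding on the plus strand unless stated. Hmgcs1 (ENSMUSG00000093930) spans chromosome 13, 119690379 to 119708260, and Idi1 (ENSMUSG00000058258) chromosome 13, 8885501 to 8892451. Sqle (ENSMUSG00000022351) spans chromosome 15, 59315077 to 59331192, and Srebf2 (ENSMUSG00000022463), which hosts the microRNA gene Mir33, chromosome 15, 82147181 to 82205379. Lss (ENSMUSG00000033105) spans chromosome 10, 76531588 to 76557138, Insig1 (ENSMUSG00000045294) chromosome 5, 28071363 to 28078662, and Abca1 (ENSMUSG00000015243, minus strand) chromosome 4, 53030787 to 53159895. Genes on the opposite strand of Hmgcs1, Idi1 and Lss held at most 10 counts in any library.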

How the data were processed

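Gene expression was measured by RNA sequencing in 8 BMDC and 9 B cell libraries. Values are the authors' deposited expected counts by gene. RSEM 1.3.3 is named for them, with STAR 2.7.8a, cutadapt 4.8 and the GRCm38 build, per the submitters' processing notes. RSEM divides reads that match several genes, so values of near-identical copies are uncertain. Strandedness and the authors' annotation release are not given in the sources used here. Groups were taken from the sample titles.

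Expected counts were rounded to whole numbers and tested in edgeR 4.0.16 (R 4.3.3) by the quasi-likelihood F test, after filterByExpr at its defaults and TMM scaling, with the 3 groups of a cell type in 1 fit and all 17 libraries in 1 fit for differences between cell types. The SE is the size of the log2 fold change divided by the square root of F. Calls were made at a Benjamini-Hochberg adjusted p under 0.05 over all genes tested. The test was also run on simulated counts in which few genes changed. That setting is unlike the B cell MSA2 libraries, so it cannot speak for the error rate there. The members and the gene lists were chosen with earlier results of these data known. All members are named for MSA2 against Control within each cell type, and in other comparisons all called members but not all others. From other lists up to 4 called genes are named, those with the largest change and a mean of at least 5 CPM. Some genes of the synthesis and uptake routes are not reported here. The other list genes in the text and Gm26902 were chosen after their values were seen. Ratios of summed Ch25h counts have exact 95% intervals. Promoters came from RefSeq and gene positions from GENCODE M21.

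Other settings tried were DESeq2 1.42.0 and limma-voom (limma 3.58.1) as tests, upper quartile or RLE scaling, a minimum of 1 CPM in 3 libraries or no minimum, fits of only the compared groups, a replicate block made from title suffixes, and each library omitted in turn. The scale per B cell marker was added after seeing the data.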

Additional observations from a re-analysis of the deposited data

Results flagged for a closer look

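For 5 of the 8 genes the effect of MSA2 against Control differed between BMDC and B cells by the interaction term of the joint edgeR fit (log2, BMDC minus B cells, with SE and adjusted p). By the same term 37% of all genes tested were called, 16.3% higher and 20.7% lower. The difference was 1.07 ± 0.23 for Insig1 (0.00119), which rose in all 3 BMDC libraries past every Control library, and 0.99 ± 0.15 for Idi1 (4.88e-05), which was above Control in 3 of 3 BMDC libraries and below it in 3 of 3 B cell libraries. It was 0.47 ± 0.11 for Srebf2 (0.00208), 0.38 ± 0.10 for Sqle (0.00676) and -0.30 ± 0.10 for Lss (0.0308). The difference of Lss missed the threshold in 7 of 17 fits that each left out a library, with an adjusted p of up to 0.0788, and with no filter on low counts (0.184).

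For the combination against Control the difference was flagged for Abca1 at -0.61 ± 0.16 (0.0462), where 3.04% of all genes were called, 2.14% higher and 0.902% lower. The Abca1 call was lost in 11 of 17 fits that each left out a library. For the combination against MSA2 the difference was flagged for Insig1 at -0.79 ± 0.24 (0.0242), Idi1 at -0.73 ± 0.16 (0.00252), Hmgcs1 at -0.64 ± 0.13 (0.000936), Sqle at -0.52 ± 0.11 (0.00145) and Srebf2 at -0.47 ± 0.115 (0.0054). In that comparison 24.1% of all genes tested were called, 15.3% higher and 8.83% lower. Insig1 missed the threshold in 6 of 17 such fits, with an adjusted p of up to 0.119. The differences that involve MSA2 include B cell libraries in which 12 of 12 B cell markers were lower with MSA2, and the part of that shift was not tested.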

How the results depend on the processing

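Of 1509 values of single members recomputed under the planned settings, 1422 kept their direction and their side of the threshold, 44 lost a call, 20 gained a call and 23 changed sign; the cause was not tested. On the added scale per summed B cell marker, outside that tally, MSA2 against Control turned to 0.209 (Hmgcs1), 0.234 (Sqle), 0.233 (Idi1), 0.584 (Insig1), 0.54 (Srebf2) and 0.522 (Abca1), and the combination against MSA2 to -0.493 (Hmgcs1), -0.41 (Sqle), -0.49 (Idi1), -0.925 (Lss), -0.503 (Insig1), -0.521 (Srebf2) and -0.42 (Abca1). The sign changes under planned settings were all of values that missed the test. Srebf2 in BMDC with MSA2 gave -0.013 with upper quartile factors. The interaction of Srebf2 for the combination against Control gave -0.006 with RLE factors, -0.024 with upper quartile factors, -0.017 with the stricter filter and -0.006 in DESeq2, and that of Ch25h -0.149 in DESeq2. Hmgcs1 in BMDC Control against B cell Control gave -0.042 with upper quartile factors. On leaving out a library the values of Insig1 in B cells for the combination against Control ran between -0.073 and 0.214, those of Srebf2 in BMDC between -0.017 and 0.12 for MSA2 against Control and between -0.048 and 0.09 for the combination against MSA2, and those of Idi1 in BMDC for the combination against Control between -0.017 and 0.124. The interactions of Srebf2 (-0.048 to 0.045) and Ch25h (-0.259 to 0.673) for the combination against Control and of Lss for the combination against MSA2 (-0.008 to 0.085) crossed 0 as well.

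Counts of called genes moved for the combination. Against Control in B cells 171 genes became 359 with no filter and 391 in DESeq2, and 91 to 220 on leaving out a library. Against Control in BMDC 4 members became 2 to 5 and 1883 genes 843 to 2177 on leaving out a library. Against MSA2 in BMDC 0 members became 3 with no filter, 1 in DESeq2 and 0 to 1 on leaving out a library, and 0 genes became 561 with no filter, 162 in DESeq2, 3 in limma-voom, 13 with the compared groups alone and 0 to 99 on leaving out a library. For the interaction of the combination against Control 1 member became 2 with the stricter filter, 2 in DESeq2 and 0 to 2 on leaving out a library, and 539 genes became 818 with no filter, 888 in DESeq2 and 246 to 654 on leaving out a library. Where 1 combination library was left in BMDC, it was assumed to vary like the other groups.

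Libraries with the same title suffix were not taken as pairs, since nothing states that they are. The correlations of their deviations ran between -0.034 and 0.232 in B cells and between -0.102 and 0.13 in BMDC. Different suffixes gave -0.194 to 0.091 in B cells and -0.13 to 0.102 in BMDC. Between the combination and MSA2 in B cells the same suffix gave 0.099, 0.13 and 0.232, and different suffixes -0.194 to 0.08. In BMDC the deviations of the combination libraries mirror each other by construction. These values do not settle whether libraries were paired. With the suffix as a replicate block the combination against Control had 260 called genes in B cells and its interaction 2 called members, Insig1 with MSA2 in B cells was called (-0.365, adjusted p 0.0192), and Sqle with the combination in BMDC was not (-0.261, 0.0641). The interaction of Hmgcs1 for the combination against Control was called (-0.451, 0.0392). For BMDC Control against B cell Control Hmgcs1 was called (0.219, 0.0439) and Abca1 was not (-0.228, 0.148). The block changed no other call of a member.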

Other observations

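In BMDC the genes of fatty acid synthesis driven by SREBP1 fell or gave no call with MSA2. Scd2, a stearoyl-CoA desaturase, had 386 and 353 CPM with the combination, 381, 341 and 328 CPM with MSA2 and 544, 458 and 509 CPM in Control, and fell by 0.52 ± 0.08 with MSA2 (adjusted p 0.000682). Acss2 (-0.31 ± 0.07), Scd1 (-0.31 ± 0.10) and Fads1 (-0.21 ± 0.06) were the other three called, and Srebf1 itself fell by 0.29 ± 0.07 (adjusted p 0.0135). Of 6 genes of cholesterol esters and storage 3 fell in BMDC with MSA2, Nceh1 (-0.42 ± 0.07), Lipa (-0.30 ± 0.06) and Soat1 (-0.26 ± 0.065), while Plin2 rose and Lipe and Soat2 were not called. Of all genes tested there 13.5% were called lower and 14.6% higher. Nceh1, a cholesteryl ester hydrolase, had 129 and 124 CPM with the combination, 109, 129 and 122 CPM with MSA2 and 159.8, 155 and 166 CPM in Control, with both treated groups wholly below Control.

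In B cell libraries Gpr183 fell by 0.60 ± 0.09 with MSA2 (adjusted p 0.000257), and its levels were 158 ± 17 CPM with the combination, 125 ± 3.3 CPM with MSA2 and 189 ± 14 CPM in Control (SD, n = 3 each). B cell markers fell in the same libraries, and their part was not tested.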
